A study of Mus musculus with 4 samples.

Results

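The genes described here are the granzymes Gzma, Gzmb, Gzmk and Gzmm with 4 further genes of lymphocyte killing, Prf1, Nkg7, Ctsw and Fasl. They are 8 of the 31053 genes in the deposited matrix and were taken by symbol. Cells came from inguinal lymph nodes draining B16F10 tumours, a transplanted mouse melanoma line, in C57BL/6J mice. The treated group held 2 mice that received indoximod, which blocks signalling of the tryptophan enzyme IDO, in water at 2 mg/ml from day 9, ibrutinib, a BTK kinase inhibitor, at 350 ug a day into the peritoneum, and the alkylating drug cyclophosphamide at 150 mg/kg on day 10. The control group held 2 mice with the same tumours and no drug. Nodes of both groups were taken 48 hours after the cyclophosphamide and profiled in droplets with 10x 3' chemistry.

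The barcodes carry library numbers 1 to 4, and nothing in the tables ties a number to a mouse or a treatment. No library was placed in a group, the effect of the drugs is not analysed here, and every level is given library by library. Differences are therefore between cell classes of the same nodes, read with a rule of size and not with a significance test.

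Cytotoxic lymphocytes store granules and release them onto a target cell at the point of contact. Perforin, encoded by Prf1, forms pores in membranes, and granzymes are serine proteases that enter the target and cleave its proteins. Granzyme B cuts after aspartate and starts apoptosis through caspases, granzyme A cuts after basic residues, Nkg7 encodes a membrane protein of the granule, and Ctsw encodes cathepsin W, a cysteine protease of cytotoxic cells. Fasl encodes the ligand of the death receptor Fas, another route to killing that needs no granzyme. NK cells carry granules before any encounter, whereas most T cells of a lymph node are resting and CD8 T cells arm themselves after activation.

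The promoters of 3 members are shown because their RNA was distributed in opposite ways: Gzmb and Gzma UMIs sat in few cells, and Nkg7 UMIs were spread over most CD8 T cells. The windows come from RefSeq (GRCm38.p6) and run from 250 bases before to 50 after the annotated start, 5′ to 3′ on the gene's strand, at chr14:56262285-56262584 on the minus strand for Gzmb, chr13:113100932-113101231 on the minus strand for Gzma and chr7:43436888-43437187 on the plus strand for Nkg7. Capitals mark matches on either strand to TGTGGT (RUNX), GGTGTG (T-box) or TGANTCA (AP-1).
Gzmb: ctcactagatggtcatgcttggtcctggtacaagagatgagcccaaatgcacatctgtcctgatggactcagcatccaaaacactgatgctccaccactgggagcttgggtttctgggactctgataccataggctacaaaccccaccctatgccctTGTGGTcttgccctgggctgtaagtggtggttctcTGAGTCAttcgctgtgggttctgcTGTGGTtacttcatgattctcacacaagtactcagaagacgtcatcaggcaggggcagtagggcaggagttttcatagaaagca
Gzma: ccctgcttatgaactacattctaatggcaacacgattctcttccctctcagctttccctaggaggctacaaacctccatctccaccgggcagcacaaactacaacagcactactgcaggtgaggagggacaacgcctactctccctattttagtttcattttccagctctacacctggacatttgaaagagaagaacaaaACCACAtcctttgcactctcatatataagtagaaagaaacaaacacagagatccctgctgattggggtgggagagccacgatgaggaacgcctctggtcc
Nkg7: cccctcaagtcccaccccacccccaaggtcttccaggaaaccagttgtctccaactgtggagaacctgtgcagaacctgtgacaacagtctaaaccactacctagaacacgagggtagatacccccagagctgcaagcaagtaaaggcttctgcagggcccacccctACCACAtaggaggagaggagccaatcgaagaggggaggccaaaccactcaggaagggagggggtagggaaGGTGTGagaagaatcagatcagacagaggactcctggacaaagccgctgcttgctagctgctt

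The Gzmb window held 2 RUNX matches, at -93 and -34 from the start, and 1 AP-1 match at -58. The Gzma window held 1 RUNX match at -50, and the Nkg7 window 1 RUNX match at -83 and 1 T-box match at -13. None of the printed matches overlapped another. Of 32851 promoter windows of this length, 16.8% held the RUNX letters, 19.0% the T-box letters and 7.81% the AP-1 letters, so these short words are frequent. RefSeq windows were matched for 7 of the 8 members, and Ctsw was not among them. In GENCODE vM21, also on GRCm38, Gzmb lies at chr14:56258838-56262260, Gzma at chr13:113093825-113100981 and Nkg7 at chr7:43437073-43438249. The offsets above count from the RefSeq starts, which differ from GENCODE for Gzmb and Nkg7. The Gzmb window lies wholly upstream of the GENCODE Gzmb gene. The GENCODE Nkg7 gene begins inside its window, between the RUNX and the T-box match. Gzmk overlaps Esm1 and Ctsw overlaps Fibp on the opposite strand. Whether counting used strand is not given in the sources used here, so reads of these overlapping pairs may not be told apart.

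The 4 libraries held between 6978 and 9831 barcodes, with total counts between 39589629 and 53643414 UMIs, where the labels give about 2000 cells a sample. Of 30824 barcodes, 26096 had 300 or more genes and no more than 10% mitochondrial UMIs, with median depths per library between 5229 and 5558 UMIs. Of 26035 distinct kept barcode sequences, 61 occurred in more than 1 library. Cells were classed by UMIs of lineage genes, none of them a member. NK cells needed at least 2 UMIs over Ncr1, Klrb1c, Klra8 and Klre1, T cells at least 2 over Cd3d, Cd3e and Cd3g, and B cells at least 2 over Cd79a and Ms4a1. T cells were then split by any UMI of Cd8b1 (CD8), Cd4 (CD4), Foxp3 (regulatory) or Trdc (gamma-delta). This gave 69 NK cells, 6582 CD8 T cells, 312 gamma-delta T cells, 450 regulatory T cells, 2922 CD4 T cells and 9230 B cells. Another 2884 T cells showed no split gene, 897 showed conflicting ones, and 1231 cells with both T and B genes were set aside. Of 35 lineage and subset markers outside the gates, 34 were higher in their gate in all 4 libraries, the exception being Tnfrsf9, 1 of 2 check markers of the effector-marked regulatory T cells used below, at 75.1 CPM there and 65.1 CPM in the other regulatory T cells. Cells with a Cd79a UMI, a B cell gene, made up 5.39% of CD8 T cells and 5.80% of NK cells, and their part in the levels was not tested beyond the alternative that leaves them out.

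Gzmb UMIs did sit in few cells. The gene had 1604 UMIs in 202 of 26096 cells, a share of 0.774%. The 20 cells with most Gzmb held 854 of those UMIs, or 53.2% (Clopper-Pearson 95% interval 50.8 to 55.7%). Few cells held most of it in every library: 5, 3, 6 and 7 cells held 50% of the 508, 189, 440 and 467 Gzmb UMIs of libraries 1, 2, 3 and 4. At the other end, 75 of the 202 cells had exactly 1 Gzmb UMI. Intervals here and below cover counting error only, since the cells of a library share a preparation. The interval for the 20 cells also treats them as fixed beforehand and UMIs as independent, although these cells were chosen by the same counts.

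The 43 cells with at least 10 Gzmb UMIs held 1192 UMIs, 74.3% of the total, and the highest cell held 88. They were no single lineage. By gate, 12 were CD8 T cells, 11 NK cells, 4 regulatory T cells, 4 T cells with conflicting split genes, 4 mixed T and B cells, and 8 fell into other gates. Of these 43 cells, 27 (62.8%) had at least 2 UMIs over Mki67 and Top2a, genes of dividing cells, as did 86 (42.6%) of all 202. Their depth was also high, with a median of 18965 UMIs against 5358.5 over all kept cells. Both marks are raw counts that rise with depth, and their overlap was not tested at equal depth. Over all kept cells, T cells with the dividing mark made up 1.19%. That share leaves out dividing cells of other gates, whereas the 62.8% and 42.6% count the mark in any class.

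Gzma UMIs also sat in few cells, with 5872 UMIs in 282 cells, and 64 cells with at least 10 UMIs held 94.6% of them. Gzmk was scarce, with 117 UMIs in 38 cells. The remaining members were spread more widely. It took 61 cells to reach 50% of the 787 Gzmm UMIs, 157 for the 475 Fasl UMIs, 1077 for the 3983 Prf1 UMIs, 1430 for the 11976 Ctsw UMIs and 1645 for the 36091 Nkg7 UMIs. Nkg7 was found in 28.6% of kept cells and no cell held more than 4 Fasl UMIs.

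**Figure D1:**
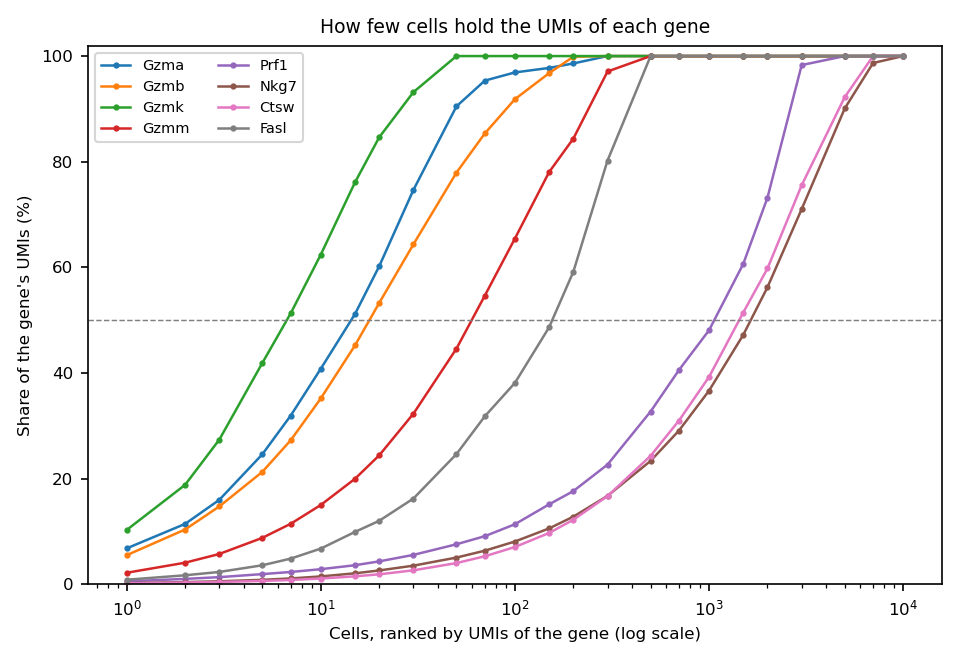
Share of each gene's UMIs (vertical axis, %) held by the cells ranked from most to fewest UMIs of that gene (horizontal axis, cells, log scale), over 26096 kept cells of 4 libraries; the dashed line marks 50%. The Gzmk, Gzma and Gzmb curves reach the line at 7, 15 and 18 cells, and the Prf1, Ctsw and Nkg7 curves at 1077, 1430 and 1645 cells.

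Among the granzymes, Gzma was highest in NK cells. Its level in NK cells was 12819, 6130, 8871 and 9176 CPM (UMIs per 1000000 UMIs of the class) in libraries 1 to 4, against 14.0, 21.6, 2.56 and 29.9 CPM in CD8 T cells, so the classes did not overlap. The 69 NK cells, 11 to 22 a library, held 59.4% of all Gzma UMIs, and 50 of them (72.5%) had at least 1. A Gzma UMI was found in 0.650% of CD4 T cells, near the 0.553% of B cells, which should lack the gene. Thinned to 1500 UMIs a cell, which left out 3 of the 69 NK cells, 5 CD8 T cells, 3 CD4 T cells and 112 B cells, these shares were 74.2% in NK, 0.411% in CD8 T, 0.240% in CD4 T and 0.197% in B cells.

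The Gzma level of gamma-delta T cells rested on few cells. Gamma-delta T cells had 7.30, 2.72, 527 and 619 CPM in libraries 1 to 4, and 1 cell held 398 of their 713 UMIs. Libraries 3 and 4 were thus high and libraries 1 and 2 low. Few cells also set the level of monocytes and macrophages, where 2 cells held all 239 Gzma UMIs and both carried an NK gate gene.

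Gzmb stood at 258, 245, 1450 and 939 CPM in NK cells of libraries 1 to 4, and 46.4% of these cells had a UMI. Regulatory T cells had 45.1, 13.2, 81.6 and 71.6 CPM, with a UMI in 8.44% of cells, and gamma-delta T cells had 2.43, 0, 104 and 122 CPM. The gamma-delta level rests on 12 of 312 cells, 1 of which held 78 of the 141 UMIs. CD8 T cells had 23.8, 7.43, 0.481 and 3.44 CPM in 0.562% of cells. The NK range lay above all others, while gamma-delta, regulatory and CD8 T cells overlapped over the libraries. Thinned shares of cells with a Gzmb UMI were 39.4% in NK, 4.05% in regulatory T, 1.61% in gamma-delta T and 0.198% in CD8 T cells, with CD4 T cells at 0.0685% and B cells at 0.0219%. Unthinned, 0.0867% of B cells had a Gzmb UMI at a median depth of 3828.5 UMIs, against 5622 in NK cells and 5501 in regulatory T cells.

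Gzmm, granzyme M, which cleaves after methionine and leucine, followed another pattern. CD8 T cells had 14.7, 11.5, 10.2 and 12.4 CPM, NK cells only 3 UMIs in all (7.76 CPM, Poisson interval 1.60 to 22.7), and regulatory T cells none, which allows up to 0.801 CPM. CD8 T cells thus led, with a range that overlaps the 0 to 17.7 CPM of NK cells. Gzmk, granzyme K, a trypsin-like protease, had 69 of its 117 UMIs in CD8 T cells, at 1.44, 1.88, 0.721 and 1.49 CPM, and none in 9230 B cells.

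Prf1, Nkg7 and Ctsw were spread over many CD8 T cells, with 50% of their UMIs in 646, 1366 and 1000 cells. Prf1 stood at 580, 405, 468 and 593 CPM in NK cells, 42.5, 43.8, 47.6 and 45.1 CPM in CD8 T cells and 21.4, 17.5, 29.6 and 22.7 CPM in CD4 T cells. Those 3 classes were apart in every library, and gamma-delta T cells (34.1 to 57.2 CPM, with 21 of 98 UMIs in 1 cell) overlapped CD8 T cells. Regulatory T cells were lower, at 3.11 to 12.0 CPM, a range apart from CD4 T cells. A Prf1 UMI was seen in 11.9% of CD4 T cells and 0.748% of B cells, or 3.43% and 0.329% after thinning.

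Nkg7 had 3338, 2403, 2563 and 2949 CPM in NK cells and 526, 521, 560 and 548 CPM in CD8 T cells, where 87.1% of cells had a UMI. Gamma-delta T cells (436 to 576 CPM) overlapped CD8 T cells, and regulatory T cells (22.3 to 51.3 CPM) lay above CD4 T cells (9.02 to 19.4 CPM) without overlap. Both levels rest on few cells, since 5 of 450 regulatory T cells held 56.1% of the Nkg7 UMIs of their class and 8 of 2922 CD4 T cells held 50%. An Nkg7 UMI was seen in 7.78% of regulatory T, 2.87% of CD4 T and 1.66% of B cells, or 2.93%, 1.27% and 0.691% after thinning. CD8 T cells, by their number, held 75.0% of all Nkg7 UMIs. Ctsw kept the same order at the top, with 903, 760, 422 and 593 CPM in NK cells and 168, 160, 168 and 167 CPM in CD8 T cells. The CD8 libraries differed little for either gene.

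For Fasl, NK cells were again highest, and CD8 T cells lay below CD4 T cells. NK cells had 32.2, 147, 76.7 and 106 CPM from 36 UMIs in 21 cells. CD8 T cells had 2.88, 2.39, 1.28 and 1.55 CPM, against 8.11, 10.6, 6.73 and 4.82 CPM in CD4 T cells. CD8 T cells were below CD4 T cells in all 4 libraries, and B cells had 3 UMIs in all.

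**Figure D2:**
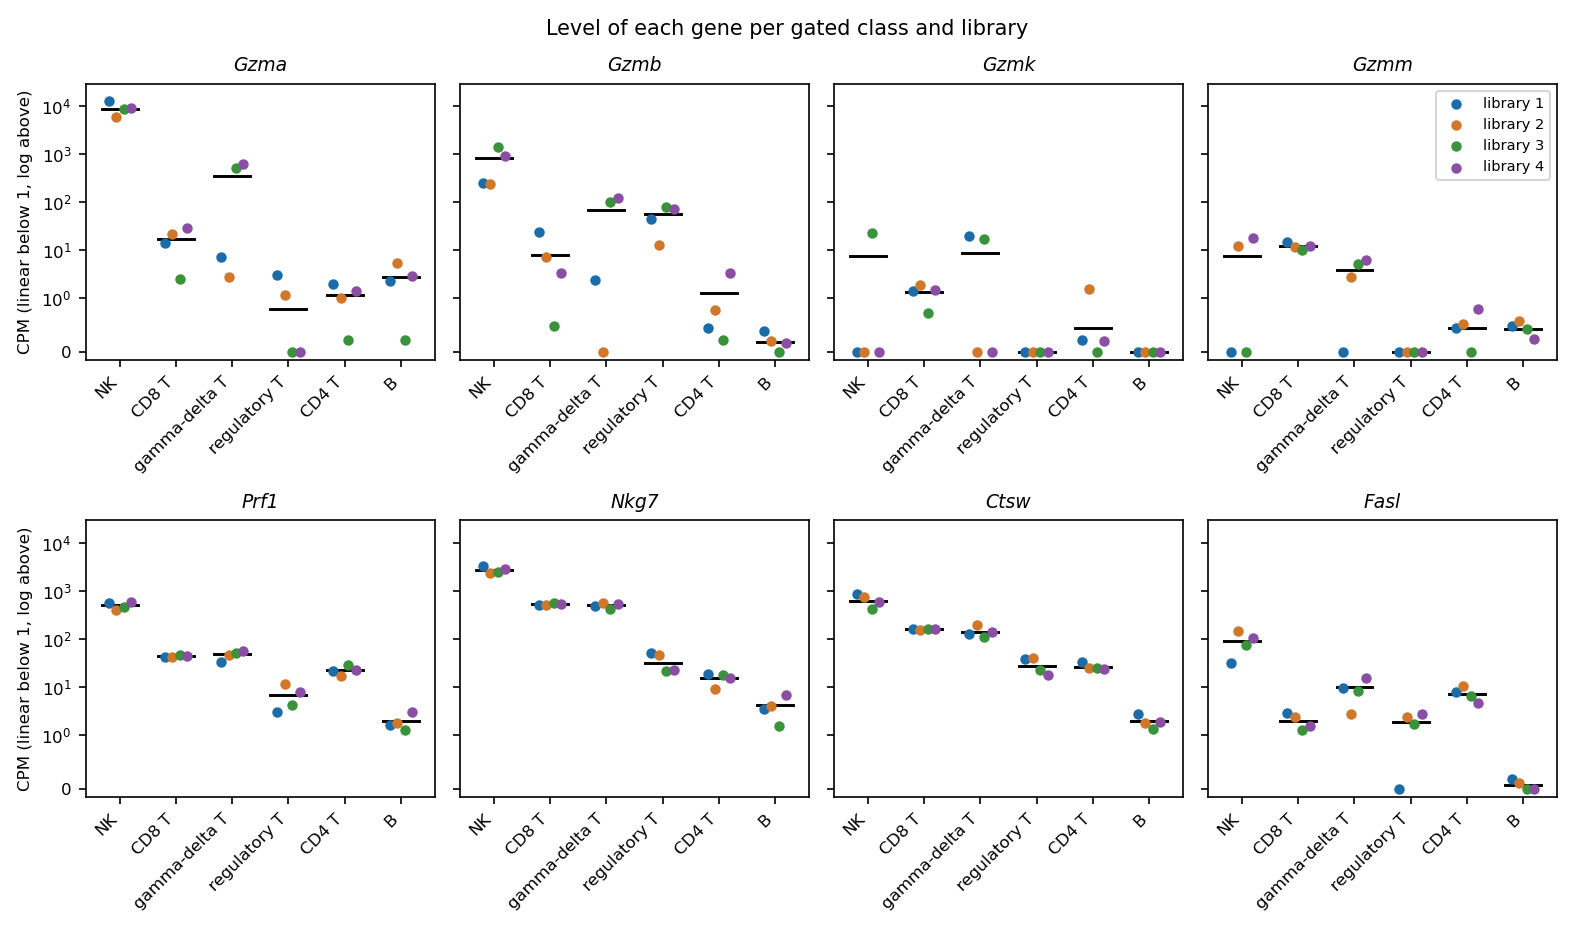
Level of each of the 8 genes (vertical axis, CPM, linear below 1 and logarithmic above) in NK, CD8 T, gamma-delta T, regulatory T, CD4 T and B cells; points are the 4 libraries and horizontal lines the CPM of their summed UMIs. NK cells are highest for Gzma, Gzmb, Prf1, Nkg7, Ctsw and Fasl, and the gamma-delta points of Gzma spread from 2.72 to 619 CPM.

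Ratios between classes were read with a rule: a gene was called when it was at least 1.5-fold higher, or lower, in every library with at least 10 UMIs over both classes, in at least 3 such libraries. In NK cells against CD8 T cells all 8 members could be tested and 6 were higher and none lower, where 6.97% of 10767 genes were called higher and 12.9% lower. The log2 ratios were 9.00 for Gzma, 6.71 for Gzmb, 5.56 for Fasl, 3.51 for Prf1, 2.36 for Nkg7 and 1.90 for Ctsw, with all 4 libraries in that direction. Gzmk and Gzmm, each with 3 NK UMIs, had no call. The median log2 ratio of the members was 3.00, against 0.31 over all genes tested. The Gzmb ratio moved with the libraries and cells used: it was 8.04 without library 1 and 5.69 without library 3. It was 10.93 once dividing T cells were left out, a step that took cells from the CD8 side only and kept any dividing NK cells.

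Of 33 other genes of granule biology, killing and its regulators, 27 could be tested in that comparison, with 15 higher and 1 lower. The chemokine genes Ccl3 (log2 ratio 7.04) and Ccl4 (5.47), the cytokine gene Ifng (6.98) and the transcription factor gene Zeb2 (6.84) led the rises. Fas, the receptor of Fasl, was the gene that was lower, on 1 NK cell UMI, at 2.59 CPM in NK cells and 21.8 CPM in CD8 T cells. The rises included Serpinb9, an inhibitor of granzyme B, at 220 CPM in NK cells and 11.3 CPM in CD8 T cells.

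CD8 T cells against CD4 T cells had 5 members higher and 1 lower of 8 tested, where 2.87% of 11192 genes were called higher and 3.26% lower. Nkg7 had a log2 ratio of 5.09, Gzmm 4.75, Gzma 3.90, Ctsw 2.62 and Prf1 0.97. Fasl was lower, at -1.90, from 99 UMIs in CD8 T cells and 131 in fewer CD4 T cells. The members' median was 2.64 and that of all genes tested -0.11. Gzmb had a summed ratio of 2.66 and no call, since library 4 had 3.44 CPM in CD8 T cells and 3.41 CPM in CD4 T cells. That ratio was 1.23 without library 1, 4.43 without library 4 and turned to -1.17 without dividing T cells. The Gzma ratio fell to 1.07 without dividing T cells and was then not called. Of the other pathway genes 8 of 26 were higher and none lower, led by Ccl4 (4.10), the T-box factor gene Eomes (3.47), Ccl5 (3.29) and the chemokine gene Xcl1 (2.79).

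Regulatory T cells against CD4 T cells had 1 member higher and 1 lower of 5 tested, where 9.59% of 9902 genes were called higher and 2.29% lower. Gzmb was higher at a log2 ratio of 5.46, from 214 UMIs in 450 regulatory T cells and 23 UMIs in 2922 CD4 T cells. All 4 libraries were higher, by 4.09 to 8.51. The Gzmb ratio was 6.77 without library 4, 4.80 without library 3 and 4.41 without dividing T cells, and it was called each time. Thinned to 1500 UMIs a cell it was 5.36, with too few counted libraries for a call. Fasl was lower at -1.98 on 7 regulatory T cell UMIs, and lost the call without dividing T cells. Prf1 had a ratio of -1.73 with no call, and was called lower at -1.97 under median-of-ratios scaling, which moves the median of genes by 0.23 to 0.37 in these classes. Nkg7 (1.05) and Ctsw (0.07) had no call, and Nkg7 was called higher at 1.85 without T cells carrying an NK gate gene. The median of the 5 members tested was 0.07, against 0.21 over all genes tested. Of the pathway genes 6 of 21 were higher and 1 lower. The rises were led by Stx11, a fusion protein of granule release, at 3.59, and by the transcriptional regulator Prdm1 at 3.45 with the cystatin gene Cst7 at 1.91, while Lyst, a gene of lysosome traffic, was lower at -1.37.

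Gamma-delta T cells against CD4 T cells had 4 members higher of 5 tested and none lower, where 4.47% of 9708 genes were called higher and 1.79% lower. This comparison, like the 2 before it, uses the CD4 class. The ratios were 8.23 for Gzma, 5.01 for Nkg7, 2.38 for Ctsw and 1.08 for Prf1, with a median of 2.38 over the members tested and 0.19 over all genes tested. Fasl (0.43) had no call. The Gzma value rests on few cells: it was 5.91 without dividing T cells and 2.21 without T cells carrying an NK gate gene, both uncalled, and the call was lost without library 1, 3 or 4. The Prf1 ratio fell to 0.70 and 0.31 in the same 2 steps and was not called. Of gamma-delta T cells 2.24% had a UMI of Ncr1, an NK receptor gene, against 0.0684% of CD4 T cells. Nkg7 and Ctsw kept their calls in both steps. The 17 dividing gamma-delta T cells held 592 of the 713 Gzma UMIs and 132 of the 141 Gzmb UMIs of the class. Only 3 of the 17 had any Gzma UMI, with 398 in 1 cell, and 8 had any Gzmb UMI, with 78 in 1 cell. An NK gate gene was seen in 4 of the 17. Of the pathway genes 10 of 24 were higher, among them Ccl4 (6.84), Ccl5 (5.78), Xcl1 (4.48) and Eomes (3.31).

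Memory-marked CD8 T cells held most granzyme UMIs of the CD8 class, but most of these cells had no UMI of a given granzyme. A UMI was seen in 3.41% of them for Gzma, 2.47% for Gzmb, 1.70% for Gzmk and 16.4% for Gzmm. The 1174 CD8 T cells with at least 2 UMIs over Cxcr3, Il2rb and Eomes were set against the other 5408, and 6 of 8 members were higher and none lower, where 4.69% of 10725 genes were called higher and 0.951% lower. Gzmm had 50.1, 36.7, 37.5 and 49.5 CPM in the memory-marked cells and 1.84, 1.32, 2.18 and 1.32 CPM in the others, a log2 ratio of 4.72. Gzmb had 88.7, 25.1, 1.77 and 14.4 CPM in the memory-marked cells, and 0.104 to 0.367 CPM in the others, a ratio of 7.23. Gzma (5.67), Gzmk (5.26) and Fasl (3.30) were also called. The memory-marked cells were deeper, with a median of 9400.5 UMIs against 6744.

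Prf1, Ctsw and Nkg7 moved little across that split, although they are the most widespread members. Prf1 had 50.8 to 55.7 CPM in memory-marked cells and 39.5 to 46.0 CPM in the others, a log2 ratio of 0.35 with no call. Ctsw had a ratio of 0.62 with no call, and Nkg7 one of 0.63 that passed the 1.5-fold line in each library by a small margin and lost the call at a 2-fold rule or under median-of-ratios scaling. The members' median was 4.01, against 0.04 over all genes tested. Of the pathway genes 9 of 25 were higher and none lower. Leaving aside Eomes, a gate gene here, the rises were led by Ccl5 at 1297 CPM in memory-marked cells and 58.4 CPM in the others, by the T-box factor gene Tbx21 (3.68) and by Ccl4 (2.57).

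In the memory-marked class, dividing cells held most Gzma and Gzmb UMIs but not most Gzmm UMIs. The 78 memory-marked CD8 T cells with at least 2 UMIs over Mki67 and Top2a had 452, 164, 2.46 and 108 CPM of Gzmb in libraries 1 to 4, and the 1096 not dividing ones 2.10, 0.696, 1.65 and 0.671 CPM. Libraries 1, 2 and 4 were high in dividing cells and library 3 was near the level of not dividing cells. In all, 388 of the 409 Gzmb UMIs of CD8 T cells lay in 19 dividing memory-marked cells. Gzma had 222, 424, 2.46 and 963 CPM in the dividing and 6.29, 9.75, 9.49 and 2.68 CPM in the not dividing cells. Of the 760 Gzma UMIs of the 78 dividing cells, 5 cells held 81.7%, and 15 cells had any. Gzmm had 14.1, 13.8, 29.5 and 78.3 CPM in the dividing and 58.7, 40.7, 38.8 and 45.3 CPM in the not dividing cells, so it was lower in dividing cells of 3 libraries and higher in library 4. Without dividing T cells the memory ratio of Gzmb was 2.50, with 13 UMIs left and no call, that of Gzma 2.39 with its call kept, and that of Gzmk 3.80 with no call. The Gzmb ratio was 6.41 without library 1 and the Gzmk ratio 7.40 without library 3 and 4.58 without library 4. Leaving out library 1, 2 or 4 left too few counted libraries for a Gzmb or Gzmk call.

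**Figure D3:**
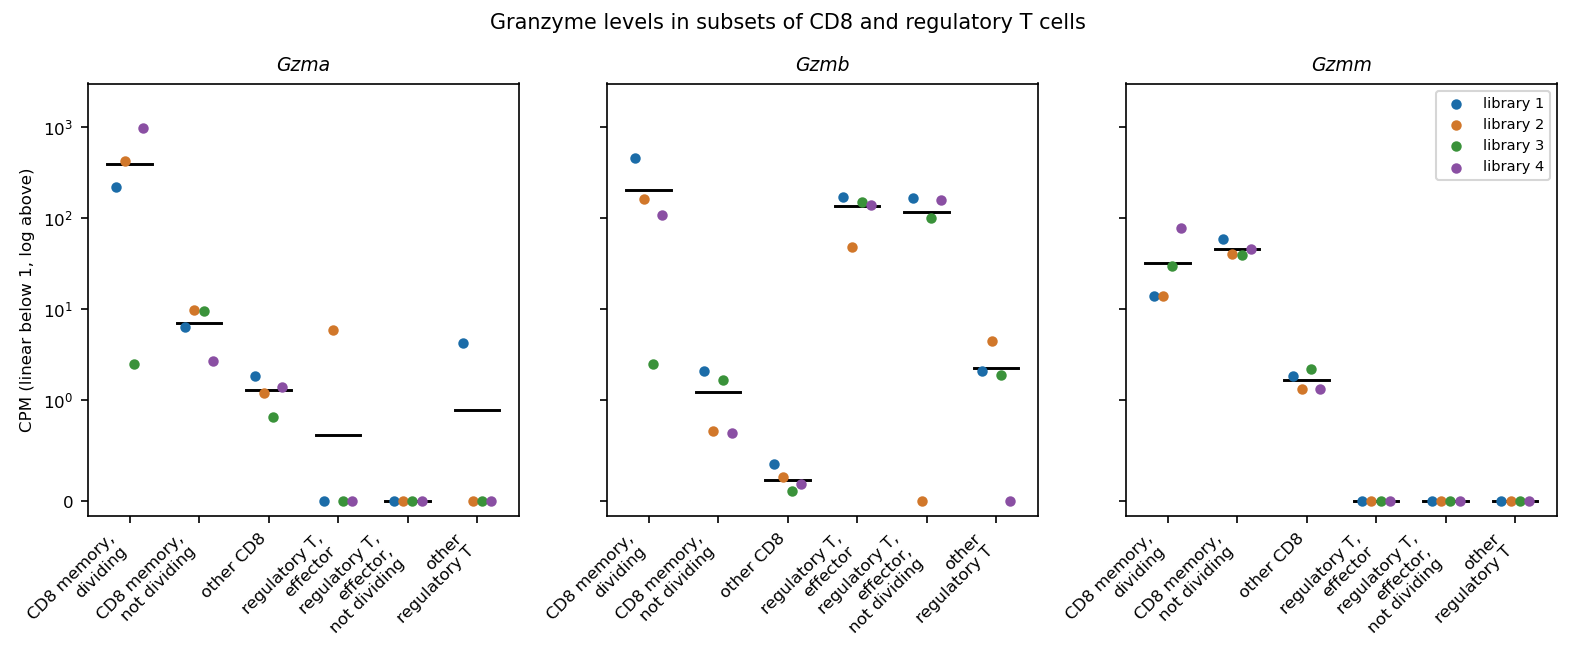
Gzma, Gzmb and Gzmm levels (vertical axis, CPM, linear below 1 and logarithmic above) in subsets of CD8 T and regulatory T cells; points are the 4 libraries and horizontal lines the CPM of their summed UMIs, and the not dividing effector-marked regulatory T cells are also part of the effector-marked set to their left. Gzmb is at 202 CPM in dividing and 1.22 CPM in not dividing memory-marked CD8 T cells, but at 136 CPM in effector-marked regulatory T cells and 116 CPM in those not dividing.

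In regulatory T cells Gzmb was higher in effector-marked cells, and part of it lay in cells that were not dividing. The 109 regulatory T cells with a UMI of Itgae, Klrg1 or Ccr8, markers of effector regulatory T cells, had 169, 47.6, 148 and 140 CPM of Gzmb in libraries 1 to 4, and the other 341 had 2.09, 4.51, 1.89 and 0 CPM. The groups did not overlap, and the log2 ratio was 5.92. It was 1 member higher of 3 tested, where 5.59% of 6819 genes were called higher and 1.95% lower. Of the effector-marked cells 35 (32.1%) had a Gzmb UMI. The 64 that were not dividing still had 116 CPM, with 165, 0, 99.0 and 159 CPM in libraries 1 to 4. These are 45 of the 209 UMIs, in 9 of the 64 cells, and 5 cells held 88.9% of them. The ratio was 6.83 without library 2 and 6.74 without dividing cells, called in both. Nkg7 (1.08) and Ctsw (-1.32) had no call, with Nkg7 the members' median, against 0.21 over all genes tested. The Nkg7 ratio was 0.15 without library 1 and 2.16 without library 2. Of the pathway genes 3 of 17 were higher and 1 lower, with Prdm1 at 2.57, Unc13d, a priming factor of granule release, at 0.97, Cst7 at 0.73 and the lysosome membrane gene Lamp1 at -0.74. Effector-marked cells were deeper, with a median of 7868 UMIs against 5067, and 9.17% of them had a Cd79a UMI, against 5.28%.

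All T cells together gave 311 dividing and 13736 other cells. Of 8 members 2 were higher in dividing cells and none lower, where 18.7% of 11798 genes were called higher and 6.09% lower. Gzmb had 257, 104, 81.1 and 126 CPM in dividing T cells and 1.24, 0.883, 1.92 and 2.13 CPM in the others, a log2 ratio of 6.43, and Gzma one of 6.01. The groups did not overlap in any library. The Gzma ratio was 6.71 without library 3 and 5.16 without library 4, and 6.19 with no call without T cells carrying an NK gate gene. The members' median was 0.76, against 0.19 over all genes tested. Dividing T cells held 882 of the 1604 Gzmb UMIs, 55.0%, although they were 311 of 26096 cells. Prf1 had 14.7, 18.5, 17.3 and 27.7 CPM in dividing T cells and 33.4, 35.0, 39.1 and 36.6 CPM in the others. Its ratio of -0.87 was not called, and was called lower at -1.15 under median-of-ratios scaling and at -1.09 without library 4. The class mix differed: 113 dividing cells were CD8 and 62 regulatory T cells, where all T gates held 6582 and 450. Prf1 stood at 33.6 CPM in dividing and 44.8 CPM in all CD8 T cells, and at 1.99 and 6.94 CPM in regulatory T cells. It was 4.88 and 23.0 CPM in CD4 T cells, and 93.7 and 48.7 CPM in gamma-delta T cells. The part of the mix in the ratio was not tested. Nkg7 (-0.06) and Ctsw (-0.28) had no call, with library ratios from -0.70 to 0.33 for Nkg7. Of the pathway genes 10 of 27 were higher and 2 lower, among them Stx11 (3.51), Ifng (3.31), Prdm1 (3.10) and Gzmc (2.75). Dividing T cells had a median of 17449 UMIs against 6190 in the others, a depth difference that moves the share of cells with a UMI. CPM divides by total UMIs, but the dividing mark is itself a raw count and was not set at equal depth.

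In CD4 T cells the helper markers went with less Prf1. The 646 CD4 T cells with at least 2 UMIs over Icos, Maf, Pdcd1, Cxcr5 and Izumo1r had 10.2, 9.14, 11.4 and 11.9 CPM of Prf1, against 27.0, 21.3, 34.6 and 25.7 CPM in the other 2276, a log2 ratio of -1.38. No library overlapped. It was the 1 member lower of 4 tested with none higher, where 0.371% of 9440 genes were called lower and 4.19% higher. The call was lost with 2 UMIs asked for Cd4. Thinned to 1500 UMIs a cell the ratio was -0.40 and not called. Fasl (0.90), Nkg7 (2.38) and Ctsw (0.34) had no call. The Nkg7 ratio spread from 0.08 to 5.50 over the libraries. It was 3.53 without library 4 and 2.92 without dividing T cells, called in both, and 1.60 without library 3. Fasl was called at 1.03 without library 2. The members' median was 0.62, against 0.13 over all genes tested. Gzmk had 8 UMIs in helper-marked cells and 0 in the others, from 4 cells, with 6 of the 8 UMIs in library 2 and 5 in 1 cell, so no fold is given. Of the pathway genes 4 of 20 were higher, namely Stx11 (3.35), Id2 (1.76), Cst7 (1.16) and Srgn (1.12), the last encoding the proteoglycan core of granules.

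**Figure D4:**
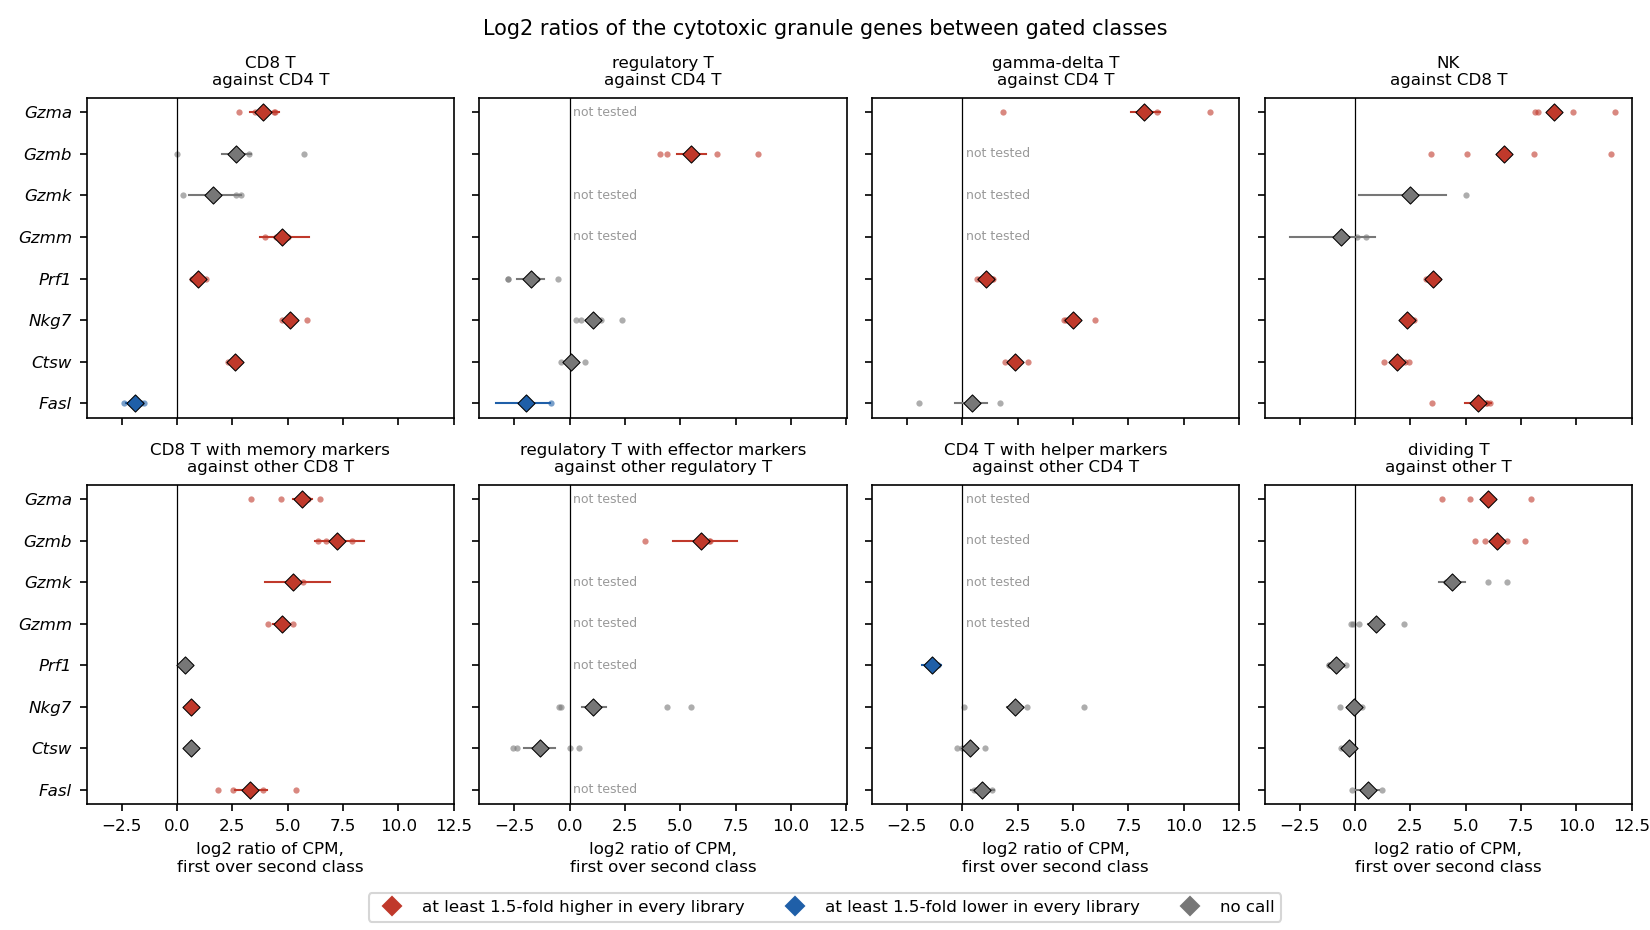
Log2 ratio of CPM (horizontal axis, first over second class) for the 8 genes in 8 comparisons; diamonds are summed UMIs with their 95% counting interval, small points are libraries with at least 10 UMIs, and libraries with 0 UMIs in a class have no finite ratio and no point; red is called higher, blue lower and grey not called. Gzmb is called higher in 5 of the panels, with ratios from 5.46 to 7.23, while Prf1, Nkg7 and Ctsw stay between -0.87 and 0.63 in the memory and dividing panels.

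The other members were counted in the cells that carried Gzmb. Of 32 NK cells with Gzmb, 31 had Gzma and 29 had Prf1, where 51.4% of the other NK cells had Gzma and 51.4% had Prf1. Of 37 CD8 T cells with Gzmb, 26 (70.3%) had Prf1, 12 Gzma, 12 Gzmm, 9 Gzmk and 11 Fasl, against 26.6% with Prf1 and 1.04% with Fasl among other CD8 T cells, whose median depth was 7052 UMIs. Thinned to 1500 UMIs a cell, 13 CD8 T cells had Gzmb. Of these, 1 had Prf1 (7.69%, against 6.66% of the others) and none Gzmm (1.07% of the others). Nkg7 was in 9 (69.2%, against 50.1%), Ctsw in 6 (46.2%, against 19.7%), and Gzmk and Fasl in 1 each. With 13 cells, these shares cannot show whether Prf1 or Gzmm was in excess at equal depth. Gzma was still in 7 of the 13 (53.8%), against 0.305% of the others. Of 38 regulatory T cells with Gzmb, 1 had Prf1 and 1 had Gzma, 8 had Nkg7 and 3 had Ctsw. Among other regulatory T cells 4.37% had Prf1, 6.55% Nkg7 and 18.2% Ctsw, so Prf1 was rare in the class with or without Gzmb. These regulatory T cells were deep, at a median of 15171 UMIs, deeper than the CD8 T cells with Gzmb at 12359. In NK cells, Prf1 was found after thinning in 20 of 26 cells with Gzmb (76.9%), against 25.0% of the others. NK cells had a median of 5 members per cell, CD8 T cells 2, gamma-delta T cells 1 and regulatory and CD4 T cells 0, and 1 CD8 T cell carried all 8.

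**Figure D5:**
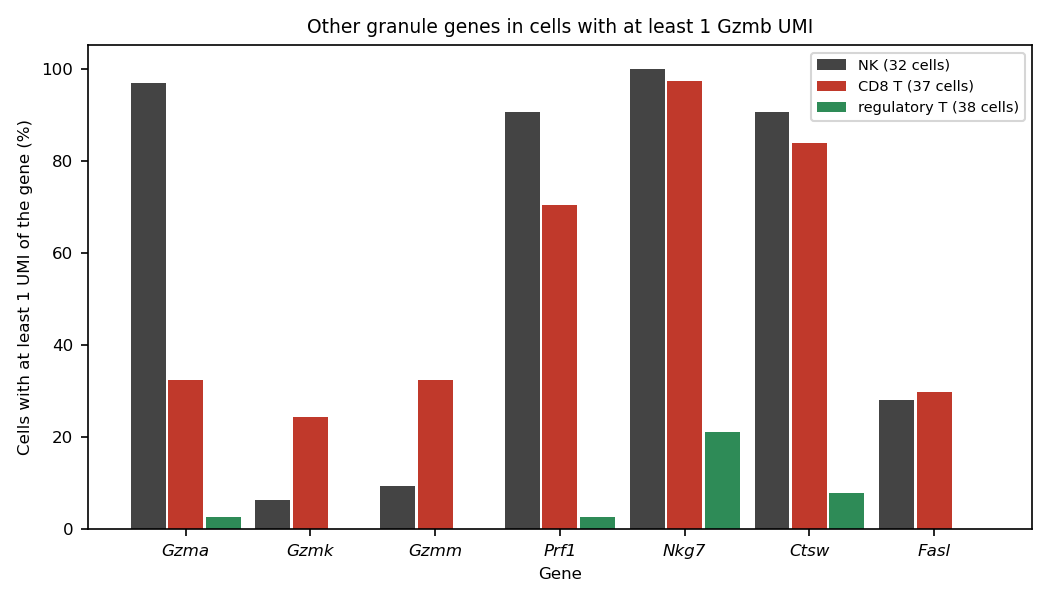
Share of cells with at least 1 Gzmb UMI that also had at least 1 UMI of each other gene (vertical axis, %), for 32 NK cells, 37 CD8 T cells and 38 regulatory T cells pooled over 4 libraries, without thinning, at median depths of 6089, 12359 and 15171 UMIs. Prf1 is seen in 90.6% of the NK, 70.3% of the CD8 T and 2.63% of the regulatory T cells.

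The related granzymes Gzmc and Gzmf of the chromosome 14 cluster gave few UMIs, and since these neighbours of Gzmb are similar in sequence their counts are uncertain. Gzmc had 250 UMIs in 1 NK cell of library 2 and otherwise had 28 UMIs in regulatory T cells, 25 in CD4 T cells and 18 in CD8 T cells. Gzmf had 19 UMIs in regulatory T cells, 17 of them in dividing ones. Gzmd, Gzme, Gzmg and Gzmn had none in any gated class.

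Likeness over classes was measured as Pearson's r of log2(CPM + 10) over 46 class by library sums of 12 classes, among 13330 genes. These points share libraries, cells and depth, so the values describe and are not tested. NK cells reached the minimum of 20 cells in libraries 3 and 4 and not in the other 2, so likeness to NK genes rests on 2 NK points. Nkg7 and Ctsw were each other's closest gene (r = 0.96), followed by Cd160 for both (0.92 and 0.93). Prf1 was closest to Ifitm10 (0.92) and Cd160 (0.90). Gzma was closest to Klra9 (0.91), Klra4 (0.90) and the NK gate gene Klrb1c (0.90), and Fasl to Klrb1c (0.92) and Klra9 (0.91). Gzmb was closest to Car5b (0.85), Itga2 (0.83) and Gfod1 (0.83), and had r = 0.81 with Gzma and 0.65 with Prf1. Gzmm was closest to Gm28935 (0.77) and had r = 0.27 with Gzmb, and Gzmk to 5330426L24Rik (0.80).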

How the data were processed

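The deposited matrix holds raw UMI counts per gene and barcode with no normalisation, made with Cell Ranger 5.0.0 per the file headers, on build mm10 per the submitters' processing notes. How counting treated strand and reads shared by similar genes is not given in the sources used here. Per the series' design text each mouse had a library of its own, pooled for sequencing.

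The members and lists were chosen with earlier results of these data known. Barcodes under 300 genes or over 10% mitochondrial UMIs were dropped, and the rest were gated by raw UMIs. At most 1 UMI was allowed of another lineage's T or B gate genes, or of most dendritic and macrophage gate genes. NK gate genes were not limited in T or B cells. A UMI of them was seen in 7.05% of gamma-delta T cells and 10.3% of memory-marked CD8 T cells. No doublet caller was applied in the main counts. Cells with at least 2 T and at least 2 B lineage UMIs were set aside, and Scrublet in scanpy 1.11.5, at 0.8% expected per 1000 cells, marked 927 cells (3.55%) for an alternative. Each class's counts were added up within a library and divided by the class total (CPM). The rule of at least 1.5-fold in every counted library was applied to all genes. No p-value was computed. Intervals are exact at 95%: Poisson for levels, Clopper-Pearson for shares, and the split of counts for ratios. A count of 0 allows up to 3 UMIs. A further split of the gamma-delta T cells is not reported here.

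Named genes were the 8 members, up to 4 called pathway genes of largest ratio per comparison, and for each member the 3 genes of highest Pearson r over sums of at least 20 cells. Fas, Serpinb9, Gzmc and Gzmf were named after their values were seen. Alternatives were median-of-ratios scaling, 3 or 30 counts, a 2-fold rule, stricter cells (500 genes, 5%) and Scrublet calls removed. The split was also run with 2 UMIs asked for Cd4 or Cd8b1, while any UMI of Foxp3 or Trdc still counted. The last were cells with Cd79a left out, thinning to 1500 UMIs and each library left out. Leaving out dividing T cells, or T cells with NK gate genes, was chosen after seeing the data. Software was Python 3.11.15, numpy 2.4.6, pandas 2.3.3, scipy 1.17.1 and matplotlib 3.10.9.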

Additional observations from a re-analysis of the deposited data

Results flagged for a closer look

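Every member also had UMIs in the 4728 barcodes that did not pass the cell filter and enter no comparison, above the 0.377 CPM that a count of 0 allows there. They numbered 195 for Gzma, 41 for Gzmb, 8 for Gzmk, 19 for Gzmm, 104 for Prf1, 449 for Nkg7, 255 for Ctsw and 16 for Fasl. The Gzmb level was 5.15 CPM in these barcodes, against 9.70 CPM in the cells kept.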

How the results depend on the processing

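No paired analysis was possible because treated and control libraries cannot be told apart, so treated against control was not run. Ratios between classes were taken within each library. No ratio that was called changed sign under the alternatives. Of 716 alternative values for 49 single-gene ratios, 652 kept their side of the rule, 45 lost a call and 19 gained one. Members called numbered 2 in regulatory against CD4 T cells, and 1 with a 2-fold rule, 0 after thinning and 1 without dividing T cells. Gamma-delta against CD4 T cells had 4, and 2 after thinning, 2 without dividing T cells and 2 without T cells with NK gate genes. Memory-marked CD8 T cells had 6, and 3 after thinning. Effector-marked regulatory T cells had 1, and 0 with 30 counts and 0 after thinning, where fewer genes could be tested. Helper-marked CD4 T cells had 1, and 0 with 2 UMIs of Cd4, 2 without dividing T cells, 2 without T cells with NK gate genes and 1 to 2 with each library left out. The share of Gzmb UMIs in the 20 highest cells was 53.2%, and 57.4% with stricter cells, 58.9% without cells with Cd79a and 57.1 to 65.8% with each library left out. These alternatives hold fewer cells than the main count. The causes of the shifts were not tested. Few UMIs limit Gzmk and Fasl, and NK values rest on 69 cells.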
